A study of Bos taurus with 20 samples.

Results

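The genes described here are 9 that code for receptors and other membrane proteins best known from immune cells: FCER2, CD24, CSF1R, CSF2RB, TLR2, MRC1, SIGLEC15, CD8B and LAPTM5. They are 9 of the 33064 genes of a count table of bovine mesenchymal stem cell (MSC) clones. They were chosen because their levels were higher in adipogenic than in non-adipogenic clones, so every difference between these groups in a member is given as a description, with no test. An MSC clone is a population of connective tissue stem cells grown from a single sorted cell. RNA from 10 adipogenic (A) and 10 non-adipogenic (N) clones was sequenced before any differentiation, with 1 library per clone. The clones came from visceral fat of Holstein Friesian x Aberdeen Angus calves of 1 to 6 months, and were cultured with fetal bovine serum and bFGF. According to the paper, parallel cultures were differentiated and judged by eye, with lipid staining for a fraction of the clones. Clones that failed to form fat cells at the first test were called N, and clones that formed them at both tests A. The A clones sequenced were those with the highest staining, so neither group is a random sample of clones. The pairs of clones from animals 17 and 20 were single, 1 A with 1 N, whereas 4 A and 4 N clones came from each of animals 22 and 23. A clone is named by its animal and its number, so that 22-27 is clone 27 of animal 22.

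In leukocytes these proteins work in separate systems. CSF1R is the tyrosine kinase receptor for CSF1 and IL34 and keeps macrophages alive. CSF2RB is the signalling subunit that the receptors for GM-CSF, IL-3 and IL-5 share, and it needs a ligand-specific partner such as CSF2RA or IL3RA. FCER2 (CD23) is the low-affinity IgE receptor of B cells and myeloid cells. MRC1 (CD206) is the macrophage mannose receptor, which takes up glycoproteins, and SIGLEC15 is a sialic acid-binding lectin of macrophages and osteoclasts that signals through the adaptor TYROBP. TLR2 senses bacterial lipoproteins together with TLR1 or TLR6 and signals through MYD88 and IRAK4. CD8B pairs with CD8A in the T cell co-receptor CD8, CD24 is a small mucin-like protein held in the membrane by a lipid anchor and is also made by B cells, epithelia and progenitors of fat, and LAPTM5 is a lysosomal membrane protein of blood cells that lowers the surface level of antigen receptors.

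Libraries of N clones held 14908802 to 43111345 counts and those of A clones 14615493 to 29185355, so a gene with fewer than 10 counts in a library carries a large counting error. N clone 22-18 was the deepest library. Levels are CPM, counts scaled to library size and by the TMM factor, which corrects library size for composition. They are not divided by transcript length and are compared between clones, not between genes. The 7 MSC marker genes listed (ITGB1, CD44, ENG, THY1, NT5E, PDGFRA and PDGFRB) had counts in every clone. By edgeR's quasi-likelihood test 0 of them were called between groups, with 0 at an unadjusted p under 0.05 and 0 called by DESeq2. N clone 22-5 stood apart from the label, with 7 counts of THY1, 9 of NT5E and 338 of ENG. Without it the log2 fold changes of the members described below were 7.60 for FCER2, 2.97 for CSF1R, 4.28 for CSF2RB, 2.10 for MRC1, 4.44 for SIGLEC15, 2.53 for TLR2, 2.89 for CD8B and 2.14 for LAPTM5. In bulk RNA, more cells that express a gene and more RNA per cell cannot be told apart.

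In N clones, 6 of the 9 members had a median of at most 2 counts, while MRC1, TLR2 and LAPTM5 were detected there with medians of 16, 10.5 and 8. At least 1 count was found in every A clone for 8 of the 9 members, the exception being CD8B, which had 0 counts in A clone 20-106. With at least 3 counts required, 4 members were found in every A clone, namely FCER2, CSF1R, SIGLEC15 and TLR2. In N clones, only MRC1 and TLR2 had a count in all 10. Every A clone lay above every N clone for 3 members, CSF1R, SIGLEC15 and CD24. Over all genes tested, a set in which these 3 members are not included because of their low counts, 0.233% separated the groups in this way. Since the members were also picked from this same contrast, nothing is read from the difference. Of the 9 members, MRC1, TLR2 and LAPTM5 passed the filter on low counts that was applied to the test of A against N clones, for which 20.6% of 12900 genes were called in either direction and 10.3% as higher in A clones.

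**Figure D1:**
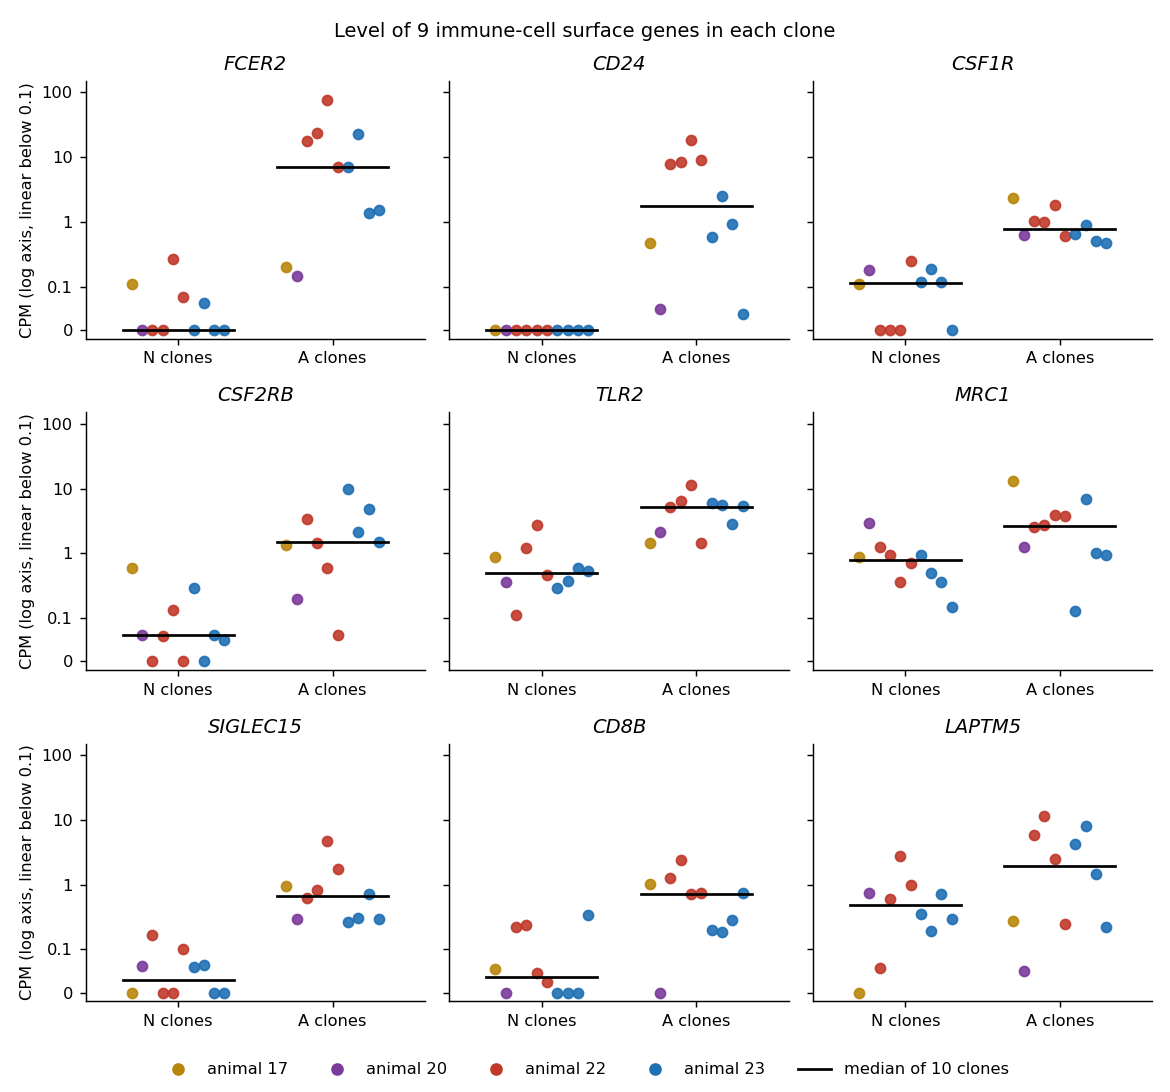
Level of each of the 9 genes in each clone, in CPM on an axis that is logarithmic above 0.1 and linear below it; each point is 1 clone, coloured by animal, and the black line is the median of the 10 clones. CSF1R, SIGLEC15 and CD24 show no overlap between A and N clones, and the spread among A clones is widest for FCER2, from 0.147 to 76.9 CPM.

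FCER2 had up to 1173 counts in an A clone and no more than 6 in an N clone. The 10 N clones held 0 to 6 counts each, 12 in all, with a median of 0. The A clones of animal 22 held 491 (22-11), 381 (22-16), 1173 (22-27) and 116 (22-121) counts, and those of animal 23 held 109 (23-14), 372 (23-62), 19 (23-68) and 42 (23-108). A clones 17-57 and 20-106 had 3 counts each, which lies within the range of the N clones, so that the separation came from animals 22 and 23 alone. The mean was 15.9 ± 23.3 CPM over A clones against 0.0517 ± 0.0863 CPM over N clones (SD, n = 10 each). The log2 fold change fitted with animal as a block was 7.84 (standard error 1.0). It rests on 12 counts in all N clones, and clone 22-27 alone held 48.5% of the summed CPM of the A clones.

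CD24 was the only member with 0 counts in all 10 N clones. A clones 22-11, 22-16, 22-27 and 22-121 had 218, 135, 286 and 148 counts, and the 4 A clones of animal 23 had 9, 42, 13 and 1 (23-14, 23-62, 23-68 and 23-108). A clones 17-57 and 20-106 had 7 and 1 counts, so 2 A clones rest on a single count each. The mean level in A clones was 4.87 ± 6.12 CPM (SD, n = 10). With the N clones set to 3 counts per library, the limit that a count of 0 allows, the mean of the A clones was at least 30.5-fold higher. This limit covers counting error only. Processed copies of CD24 are known from other mammals, and reads that match several places were not counted by the authors, so its counts are uncertain.

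The cytokine receptors CSF1R and CSF2RB were both low, with different spreads. CSF1R had 0 to 10 counts per N clone (median 2), where 10 counts belonged to the deepest library, 22-18. It had 7 to 35 counts per A clone (median 14), and clone 17-57 was the highest at 2.38 CPM. The highest N clone stood at 0.254 and the lowest A clone at 0.475 CPM. The spread over A clones was narrow beside that of FCER2 or CD24, with a mean of 1.01 ± 0.627 CPM against 0.0974 ± 0.0940 CPM for N clones (SD, n = 10 each) and a log2 fold change of 3.13 (standard error 0.578).

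CSF2RB had 0 to 11 counts per N clone (median 1), and 17-23 was the only N clone over 5. The A clones of animal 23 had 148 (23-14), 35 (23-62), 66 (23-68) and 41 (23-108) counts, and those of animal 22 had 93 (22-11), 23 (22-16), 9 (22-27) and 1 (22-121). A clones 17-57 and 20-106 had 20 and 4. A clones 20-106, 22-27 and 22-121 did not reach the highest N clone, and the other 7 exceeded it. The mean was 2.51 ± 2.90 CPM over A clones against 0.126 ± 0.188 CPM over N clones (SD, n = 10 each), a log2 fold change of 4.42 (standard error 0.811). Clone 22-27, with the highest FCER2, CD24, SIGLEC15 and TLR2, was thus among the lowest A clones for CSF2RB.

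The lectins MRC1 and SIGLEC15 behaved differently. MRC1 was detected in all 20 clones, with 3 to 48 counts in N clones (median 16) and 2 to 193 in A clones (median 51.5). Only 4 A clones lay above every N clone, since N clone 20-15 stood at 2.94 CPM, and A clone 23-14 at 0.131 CPM lay below every N clone. The A clone 17-57 at 13.1 CPM held 36% of the summed A level. The log2 fold change was 1.99 (standard error 0.573), with means of 0.902 ± 0.790 (N) and 3.64 ± 3.87 CPM (A, SD, n = 10 each). SIGLEC15 had 0 to 4 counts in N clones, 10 in all, and 4 to 71 in A clones (median 11.5). Clone 22-27 held 43.6% of its summed A level, and the lowest A clone, 23-14 at 0.262 CPM, lay above the highest N clone at 0.169 CPM. At these bounds the separation rests on 4 counts in 23-14 and 3 in N clone 22-5. The log2 fold change was 4.22 (standard error 0.652).

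TLR2 was detected in all 20 clones, and no A clone had fewer than 21 counts. Its counts ran from 2 to 62 in N clones (median 10.5) and from 21 to 176 in A clones (median 91.5). N clone 22-17 had the 62 counts, 2.77 CPM, and A clones 17-57, 20-106 and 22-121 lay below it at 1.43, 2.15 and 1.46 CPM. The other 7 A clones exceeded all N clones. The mean was 4.80 ± 3.05 CPM over A clones against 0.758 ± 0.772 CPM over N clones (SD, n = 10 each), a log2 fold change of 2.67 (standard error 0.475).

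CD8B had 0 to 7 counts in N clones (median 1) and 0 to 38 in A clones (median 11.5). The highest A clones were 22-16 with 38, 22-11 with 35, 23-108 with 20 and 17-57 with 15 counts. A clone 20-106 and 4 N clones had none, and 6 A clones exceeded all N clones. The log2 fold change was 2.77 (standard error 0.673) and 3.72 without N clone 23-74, which held the 7 counts, with means of 0.0928 ± 0.126 and 0.752 ± 0.700 CPM (SD, n = 10 each).

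LAPTM5 overlapped between groups in most A clones. N clones had 0 to 62 counts (median 8) and A clones 1 to 181 (median 29). A clones 22-16, 22-11, 23-62 and 23-14 had 181, 159, 133 and 64 counts and were the 4 above every N clone, while 17-57, 20-106, 22-121 and 23-108 had 1 to 6 counts. N clones 22-17 and 22-18 had 62 and 39. The log2 fold change was 2.32 (standard error 0.842), from 0.671 ± 0.806 to 3.41 ± 3.91 CPM (SD, n = 10 each).

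The A clones differed in how many of the 9 genes they expressed above the N clones. Clones 22-11, 22-16 and 23-62 exceeded every N clone in 8 members, 22-27, 23-14 and 23-108 in 7, and 17-57, 22-121 and 23-68 in 6. Clone 20-106 did so in 3, the separating genes CSF1R, SIGLEC15 and CD24, the last of these with 1 count. The share of all genes above every N clone was not computed for each A clone. As the members were also picked for higher levels in A clones, these counts are descriptions only. The summed level of all 9 genes ran from 4.80 CPM (20-106) to 121 CPM (22-27) in A clones, and from 1.36 to 6.36 CPM in N clones. Within animal 20 the A clone was lower than the N clone for MRC1 and LAPTM5, with log2 differences of -1.14 and -2.45, and for CD8B both had 0 counts. In animal 17 the A clone was higher for all 9 members, by 0.53 (FCER2) to 3.76 (MRC1), in animal 22 by 1.85 (LAPTM5) to 7.07 (FCER2), and in animal 23 by 1.18 (MRC1) to 5.25 (FCER2). Animals 17 and 20 give 1 clone of each kind, so their values have no replicate check. In animal 17, FCER2 had 3 counts in the A clone against 2 in the N clone, and LAPTM5 4 against 0, where counting error is large.

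Next, A clones of the 2 animals with 4 clones each were compared, a contrast that the choice of members did not use. All 9 members passed the filter among these 8 clones. CD24, SIGLEC15, CD8B and CSF1R passed mainly through animal 22, where they were higher, and CSF2RB mainly through animal 23. CD24 had 135 to 286 counts per A clone in animal 22 and 1 to 42 in animal 23. Nothing is therefore read from the p of CD24, SIGLEC15, CD8B, CSF1R and CSF2RB. edgeR's quasi-likelihood test called 0% of 13272 genes, while 954 had an unadjusted p under 0.05 and DESeq2's Wald test called 111. CD24 showed the widest difference among members. It stood at 7.86, 8.48, 18.7 and 9.00 CPM in 22-11, 22-16, 22-27 and 22-121, and at 0.588, 2.57, 0.935 and 0.0366 CPM in 23-14, 23-62, 23-68 and 23-108. The ranges did not overlap, but the share of all genes that separate these clones was not computed. The log2 difference of animal 23 minus animal 22 was -3.43 (standard error 0.863, adjusted p = 0.641, edgeR's quasi-likelihood test, unadjusted p = 0.00371 from the same fit). In DESeq2's Wald test the adjusted p of CD24 was 0.0044, so whether the difference passes depends on the tool, and nothing is read from either p.

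For SIGLEC15 and CD8B there were log2 differences of -2.29 (standard error 0.723) and -1.76 (standard error 0.601), with adjusted p of 0.68 for both from edgeR's quasi-likelihood test. FCER2 was at -1.93 (standard error 1.02, adjusted p = 0.739) and CSF1R at -0.80 (standard error 0.422, adjusted p = 0.739). CSF2RB had the opposite sign, 1.68 (standard error 0.943, adjusted p = 0.742), since its 4 A clones of animal 23 had 1.5 to 9.68 CPM and those of animal 22 had 0.0608 to 3.35 CPM. MRC1, TLR2 and LAPTM5 differed by -0.52, -0.30 and -0.51, each less than its standard error. Single clones moved several of these values. Without A clone 23-62 the difference was -2.19 for MRC1 and -3.23 for FCER2, and without 22-27 it was -0.98 for FCER2 and -1.41 for SIGLEC15. For CSF2RB it was 2.68 without 22-11 and 1.01 without 23-14. It was also asked whether A and N clones differed to the same degree in animals 22 and 23. This interaction was called for 0.0310% of 12915 genes (1170 at an unadjusted p under 0.05, and 117 called by DESeq2), and MRC1, TLR2 and LAPTM5, which passed its filter, were not among them, with adjusted p of 0.976, 0.804 and 0.883 (edgeR's quasi-likelihood test). FCER2 passed only through its A clones, with at most 6 counts in any N clone, so nothing is read from its interaction.

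**Figure D2:**
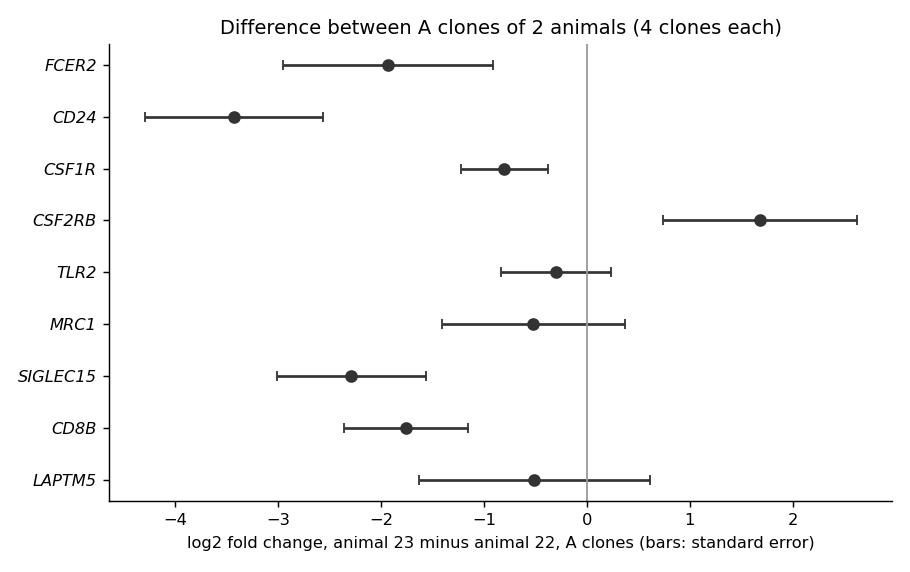
Log2 fold change of each member between the A clones of animal 23 and animal 22 (4 clones each), with points at the fitted value and bars for the standard error. CD24 lies farthest from 0, at -3.43, and CSF2RB is the only member on the positive side, at 1.68.

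Levels of the members were then compared with each other and with PPARG, the master transcription factor of fat cell formation, over the 10 A clones (log2 CPM). Of 45 relations, none passed an adjusted p of 0.05 in the permutation test of Pearson's r (smallest adjusted p = 0.128), and 9 had an unadjusted p under 0.05. Of the 36 pairs of members, 30 had a positive r, with a median of 0.39. These pairs share genes, and the same values were not computed for pairs of other genes, so nothing is read from them. Over all 10 clones FCER2 and CD24 had the highest r of the member pairs, with r = 0.84 (permutation p = 0.00358, adjusted p = 0.128) and rho = 0.76 (permutation p = 0.0149, adjusted p = 0.168). Without 20-106 and 17-57, the clones farthest from the median FCER2, r was 0.81, and it was 0.79 within animal 22 and 0.70 within animal 23 (4 clones each). Centred within these animals, r was 0.68 (exact permutation p = 0.122, adjusted p = 0.456, n = 8). FCER2 and CSF1R had r = 0.18 over all 10 clones (permutation p = 0.615, adjusted p = 0.813) and rho = 0.41 (permutation p = 0.247, adjusted p = 0.528), but r = 0.95 without 20-106 and 17-57, 0.99 within each of animals 22 and 23, and 0.92 after centring (exact permutation p = 0.00694, adjusted p = 0.156, n = 8). FCER2 also had r = 0.78 with LAPTM5 and r = 0.75 with TLR2, each with an adjusted permutation p of 0.128.

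The lowest r was that of CSF2RB with PPARG, at -0.78 (permutation p = 0.00748, adjusted p = 0.128) with rho = -0.81 (permutation p = 0.00733, adjusted p = 0.148). Without 22-121 and 23-14, the clones farthest from the median CSF2RB, r was -0.60. Within animals 22 and 23 it was -0.99 and -0.98, 4 clones each. In animal 22, CSF2RB stood at 3.35, 1.44, 0.590 and 0.0608 CPM in 22-11, 22-16, 22-27 and 22-121, while PPARG stood at 4.32, 6.15, 10.9 and 19.6 CPM. In animal 23, clones 23-14, 23-68, 23-62 and 23-108 had 9.68, 4.75, 2.14 and 1.5 CPM of CSF2RB and 4.58, 6.76, 8.01 and 9.65 CPM of PPARG. In both animals the order of the clones was thus exactly opposite for the 2 genes. After centring within these animals, the exact permutation p was 0.00174 (n = 8), the smallest that the arrangements within animals can give, and 0.0781 when adjusted over the 45 centred relations. The pair was singled out on these same clones. LAPTM5 also ran against PPARG, with r = -0.75 (permutation p = 0.0149, adjusted p = 0.128). PPARG shares a locus with a read-through gene in the table, so part of its reads could have been lost or split.

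**Figure D3:**
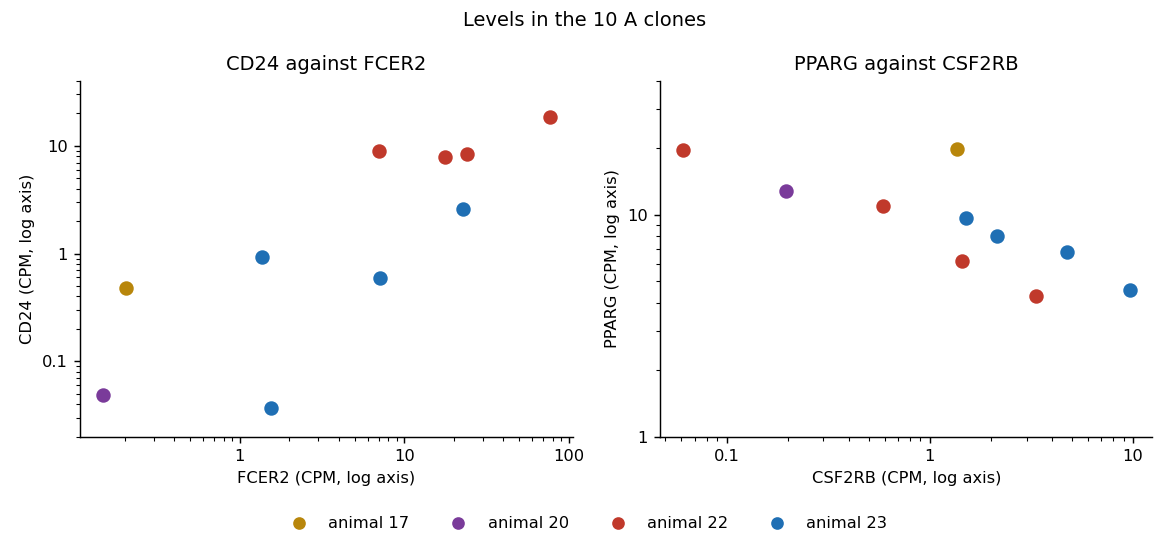
Levels of CD24 against FCER2 (left) and of PPARG against CSF2RB (right) in the 10 A clones, in CPM on logarithmic axes, each point 1 clone coloured by animal. Clones with more CSF2RB have less PPARG, over 19.6 to 4.32 CPM in animal 22 and 9.65 to 4.58 CPM in animal 23, and clone 17-57 lies off both orders.

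Genes with the most similar pattern over the 10 A clones were sought for each member. For FCER2 these were SEC16B (Pearson's r = 0.968), KCTD5 (0.956) and LOC785408 (0.946), and for CD24 COBL (0.973) and C20H5orf34 (0.940). CSF2RB was closest to PTX3 (0.949), a secreted pentraxin of innate immunity that had a mean of 4.51 CPM in N and 21.6 CPM in A clones, followed by ZBTB10 (0.947) and FBLN7 (0.931). CSF1R was closest to C15H11orf71 (0.938), CAPZB (0.903) and TNC (0.885), and TLR2 to SCAMP5 (0.943), SLC38A5 (0.927) and ATP11A (0.916). For MRC1 the genes were AGER (0.947), PPFIA4 (0.939) and CCNL2 (0.938), for SIGLEC15 ZNF135 (0.880), POGK (0.869) and MTX2 (0.859), for CD8B EFCAB11 (0.962), TNFRSF8 (0.955) and LOC100336777 (0.942), and for LAPTM5 PTBP1 (0.962), LOC789960 (0.959) and FANCE (0.951). These are the highest values out of all genes that passed the filter, over 10 clones, and are descriptions.

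Among genes that mark leukocytes, PTPRC, CD53, TYROBP, SPI1 and SYK were at or near 0 in the same libraries, but other listed markers were not. ARHGDIB had 24 to 656 counts in N and 83 to 700 in A clones, and CD247 had 61 to 194 and 67 to 189. CORO1A, FCER1G and CD79A also had counts in every clone, at most 30, 21 and 22 in N and 26, 26 and 27 in A clones. PTPRC (CD45), the surface phosphatase of all nucleated blood cells, had 1 count in N clone 20-15, 7 counts in A clone 22-11 and 0 in the other 18 clones. CD53 had 0 counts in all 20. TYROBP, the signalling partner of SIGLEC15, had 1 count in A clone 23-62 and 0 elsewhere, and SPI1, the transcription factor of myeloid and B cells, had 0 to 4 counts in N and 0 to 5 in A clones. SYK, the kinase downstream of TYROBP, had 0 to 1 counts in N and 0 to 4 in A clones. In clone 22-27, which held 1173 FCER2 and 286 CD24 counts, PTPRC, CD53 and TYROBP were at 0, but the clone was also the highest A clone for CD163 (52 counts), OSCAR (26) and SYK (4) and had 207 FCGR1A counts. CD14, a myeloid co-receptor of TLR2, was detected in 8 N clones (0 to 107 counts) and all 10 A clones (1 to 135), with the highest N clone, 20-15, above every A clone in CPM. CD8A had 0 to 3 counts in N and 0 to 12 in A clones. Clone 22-11, which had the 7 PTPRC counts, was also the highest A clone in CPM for CD14 (135 counts), the B cell factor PAX5 (32) and the endothelial marker PECAM1 (450). CD53 and TYROBP were at 0 in clone 22-11, and it exceeded every N clone in 8 members. The part of rare leukocytes in the members' levels was not tested beyond these values.

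**Figure D4:**
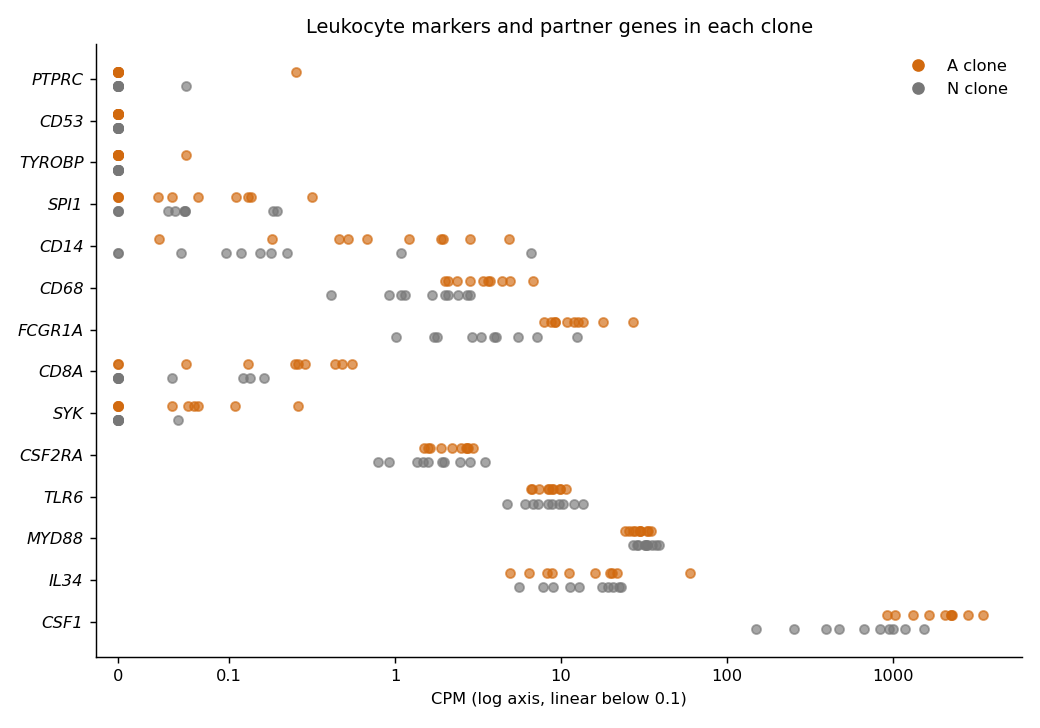
Level of leukocyte marker genes and of ligands, partners and adaptors of the members in each of the 20 clones, in CPM on an axis that is logarithmic above 0.1 and linear below it; orange points are A clones and grey points N clones. PTPRC, CD53 and TYROBP lie at or near 0, while CSF1 lies at 149 to 3460 CPM.

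Of 51 genes in lists for pan-leukocyte, macrophage, B, T and NK and mast cells, 13 had 0 counts in all clones, 35 had at most 10 counts in any clone, and 6 passed the filter. Their summed level was 29.2 to 403 CPM in N and 76.3 to 624 CPM in A clones, to which LCP1, an actin-bundling protein also made outside blood cells, gave a mean of 79.8 and 114 CPM. Of the 6 tested, 2 were called, both higher in A clones and both from the macrophage list, of which 2 genes were tested. Over all genes tested 10.3% were higher, and 6 genes are too few to set a share beside it. CD68, a lysosomal glycoprotein, went from 1.72 ± 0.810 to 3.61 ± 1.46 CPM (log2 fold change 1.06, standard error 0.281, adjusted p = 0.0157, edgeR's quasi-likelihood test). FCGR1A, the high-affinity IgG receptor, went from 4.38 ± 3.38 to 12.9 ± 5.81 CPM (log2 fold change 1.61, standard error 0.366, adjusted p = 0.0074, same test, SD over n = 10 each). Both are also in the CD gene list that the study picked on these clones, so their direction is not independent evidence. The 17 macrophage genes summed to 2.70 to 16.0 CPM in N and 11.1 to 36 CPM in A clones. With the osteoclast, endothelial and MSC genes added, 2 of 18 tested among 72 were higher and 0 lower, a share near the 10.3% higher among all genes tested, with a median log2 fold change of 0.58 against -0.01 over all genes.

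Of 60 ligands, co-receptors, adaptors and relatives of the members, 57 were found under their symbols, 30 were tested, 4 were higher and 1 was lower in A clones, with a median log2 fold change of 0.10. Over all genes tested, 10.3% were higher and 10.3% lower, and the 5 calls among 30 are no larger a share. TLR1, CSF3R and CD33 were not analysed here. CSF1, a ligand of CSF1R, rose from 742 ± 437 CPM in N to 2000 ± 794 CPM in A clones (log2 fold change 1.59, standard error 0.319, adjusted p = 0.00378, edgeR's quasi-likelihood test, SD over n = 10 each). Its lowest value was 149 CPM in N clone 17-23 and its highest 3460 CPM in A clone 23-62, and 7 A clones exceeded all N clones. IL34, the other ligand, was at 14.9 ± 6.33 and 17.7 ± 15.9 CPM (log2 fold change 0.21, standard error 0.341, adjusted p = 0.686). CSF2RA, the partner of CSF2RB in the GM-CSF receptor, was at 1.88 ± 0.848 and 2.24 ± 0.548 CPM (log2 fold change 0.29, standard error 0.227, adjusted p = 0.375), and IL3RA had at most 1 count in an N clone and 4 in an A clone.

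CBL, a ubiquitin ligase that takes CSF1R off the surface, was 0.50 higher in log2 units (standard error 0.109, adjusted p = 0.00551), and IL4R, whose signal induces FCER2 in B cells, rose by 0.59 (standard error 0.190, adjusted p = 0.0371). IL4R passed the threshold in 12 of 28 alternative analyses. PLA2R1, a relative of MRC1, rose by 2.73 (standard error 0.541, adjusted p = 0.00367), although 1 N clone at 130 CPM lay above every A clone. Its log2 fold change was 0.70 (adjusted p = 0.588) without the animal block, in which the clones are not paired by animal, and the call was also lost without animal 22 (adjusted p = 0.094) and without animal 23 (adjusted p = 0.163). IRAK4, the kinase below TLR2 and MYD88, fell by 0.44 (standard error 0.10, adjusted p = 0.0073). TLR6 and MYD88 did not pass, with log2 fold changes of 0.00 (standard error 0.144, adjusted p = 0.994) and -0.14 (standard error 0.0823, adjusted p = 0.230). All these tests are edgeR's quasi-likelihood test with animal as a block. Without animal 23 that test called 32 of 13071 genes in all, 0 of the pathway genes (7 at an unadjusted p under 0.05, as many as with all animals) and 0 of the marker genes (5, again as many).

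The genes next to each member in the RefSeq annotation of assembly ARS-UCD2.0, used for order only, were looked up after the members' values had been seen. Of 18 neighbours, 10 were tested, and 1 was called higher and 1 lower in A clones. Over all genes tested 20.6% were called in either direction, a like share, so nothing is read from these calls. SDC3 beside LAPTM5 was higher in A clones (log2 fold change 1.0, standard error 0.311, adjusted p = 0.0317, edgeR's quasi-likelihood test, past the threshold in 19 of 28 alternative analyses), and TMEM131L beside TLR2 was lower (-0.53, standard error 0.155, adjusted p = 0.0237). PDGFRB, which lies next to CSF1R and codes for a related kinase, was not called (0.32, standard error 0.296, adjusted p = 0.462). The annotated intervals of SIGLEC15 and EPG5, of TLR2 and RNF175, and of LAPTM5 and MATN1 overlap, so counts of these pairs are uncertain. For EPG5 the log2 fold change was 0.00 (standard error 0.116). RNF175 and MATN1 did not pass the filter, and without it their log2 fold changes were 1.54 (standard error 0.932) and 1.32 (standard error 0.672), at 0.0901 and 0.259 CPM in A clones.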

How the data were processed

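Each of the 20 clones has 1 RNA sequencing library (directional kit, paired reads). The authors trimmed reads (Trimmomatic 0.36), mapped them to ARS-UCD1.2 (STAR 2.5.2b) and counted unique reads within exons (Subread 1.5.2), and deposited raw counts per gene. The strand setting is not given in the sources used here. The unnamed row (0.113% to 0.333% of counts) was left out. Columns of samples outside the series numbered 0.

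The members, gene lists and tests were chosen with earlier results of these data known. Of 33064 genes, 23383 had a count. edgeR 4.0.16 in R 4.3.3 (TMM, default filter, robust quasi-likelihood fit, Benjamini-Hochberg adjustment) tested A against N with animal as a block (12900 genes), animal 23 against 22 within A clones (13272) and their interaction (12915), at an adjusted p under 0.05. DESeq2 1.42.0 was an alternative. Members' fold changes come from the fit without a filter and are given without a test. Each standard error is the absolute log2 fold change divided by the square root of the quasi-likelihood F statistic of the same fit. It is therefore not a separate estimate of spread. For members in A against N it rests on the contrast that chose them, and no test is read from it. Log2 CPM used a prior count of 2, and the limit for a count of 0 was 3 counts per library. The p of correlations came from permutations in scipy 1.17.1 (100000 resamples over 10 clones).

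Clones were paired by animal, and the correlation of A with N deviations from the group means was 0.253, 0.192, 0.241 and 0.440 for animals 17, 20, 22 and 23. The labels give no batch. Clones of an animal share a donor, so p-values measure the spread between clones. The highest correlation of log2 CPM between any 2 clones was 0.9886. Genes named are the members, 9 fixed partner and marker genes, list genes that passed, and the 3 most similar genes per member (1 of which is not reported here), while others, among them TLR6, MYD88, SYK and the neighbours, were named after values were seen. Alternatives were no block, DESeq2 size factors, no filter, DESeq2, each clone or animal left out, other prior counts and scalings. The fits were tested on simulated data.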

Additional observations from a re-analysis of the deposited data

Results flagged for a closer look

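Among 46 groups of 10 clones examined, 4 held a clone whose distance to its nearest neighbour was large for the group's whole range (above Dixon's critical value for 10 samples). Chance flags about 1 in 20 groups of continuous values, but a gene at 0 in 9 of 10 clones is singled out by any count at all, which holds for 3 of the 4. PTPRC stood apart in A clone 22-11, with 7 counts and 0 in the other 9 A clones (distance 1 of the range). PTPRC in N clone 20-15 and TYROBP in A clone 23-62 each stood apart through a single count, also at a distance of 1. IRAK4 was lowest in A clone 23-14, at 29.8 CPM (456 counts), with a distance of 0.473 to the next A clone. Clone 23-14 was also the lowest A clone for SIGLEC15 and MRC1 and the highest for CSF2RB.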

How the results depend on the processing

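Of the 72 cell type marker genes, 2 were called in the main analysis, 6 with no filter, 9 with DESeq2's Wald test, 1 without animal 22, 0 without animal 23, and 2 to 4 with 1 clone left out. Of the 57 genes of the members' pathways, 5 were called in the main analysis, 3 with no animal block (the pairing left out), 0 without animal 23, and 4 to 6 with 1 clone left out. The main analysis tested 18 of the marker and 30 of the pathway genes. Over all genes it called 2658 of 12900, DESeq2's Wald test 4120 of 17398, and the fit with no filter 11.8% of 23383. Without animal 22 the total was 1471 of 12816, and without animal 23 it was 32 of 13071. Nothing is therefore read from these shifts about the listed genes. The comparison of animals 23 and 22 within A clones called 0 genes, 111 with DESeq2, and 0 to 4 with 1 clone left out, the 4 being without A 23-62. The interaction called 4 genes, 117 with DESeq2, and 0 to 11 with 1 clone left out (0 without N 23-74, 11 without N 22-5). Members with a count in every A clone numbered 8, 4 at 3 counts, and 5 with counts scaled to the smallest library. No correlation passed in any of the 3 alternatives. The difference between animals within A clones ranged from -0.63 to 0.19 for TLR2 and from -1.37 to 0.28 for LAPTM5 with 1 clone left out, above 0 without A 22-27 and A 22-16. The interaction of FCER2 (0.32) ranged from -0.98 to 2.04 with 1 clone left out and was below 0 in 4 fits (-0.84, -0.05, -0.01 and -0.98), and that of MRC1 (0.20) ranged from -1.45 to 0.74 and was below 0 in 3 (-0.05, -0.12 and -1.45). The cause of these changes was not tested. A minus N fold changes of all 9 members kept their direction without the block and with any clone left out, with ranges of 7.15 to 8.37 (FCER2), 2.96 to 3.59 (CSF1R), 4.05 to 4.86 (CSF2RB), 3.72 to 4.44 (SIGLEC15), 2.52 to 3.72 (CD8B), 1.36 to 2.28 (MRC1), 2.49 to 3.06 (TLR2) and 1.93 to 2.77 (LAPTM5). The lowest value was without A 22-27 for FCER2 and without A 23-62 for MRC1, and the highest was without N 23-74 for CD8B. Since the members were picked for higher levels in A clones, nothing is read from the kept direction. For the members no whole animal was left out. Within animal 20 alone, MRC1 and LAPTM5 were lower in the A clone, with log2 differences of -1.14 and -2.45. Low counts limit CD24, SIGLEC15, CD8B and CSF1R, where a few counts set the order of clones, and 2 animals gave a single clone of each kind.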

Other observations

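Without the filter on low counts, which fitted 23383 genes and called 11.8% of them (6.89% as higher in A clones), 4 more marker genes than in the main analysis were called higher in A clones, by edgeR's quasi-likelihood test: CD14, CD3G, OSCAR and PAX5. PAX5, the B cell identity factor, had 2 counts over all N clones and 69 over all A clones, with 8 A clones above 0 and at most 32 counts in a clone. OSCAR, an osteoclast receptor, had 9 and 86 counts, and CD3G, a T cell receptor subunit, had 25 and 134. SYK, among the pathway genes, had 1 count over all N clones and 11 over all A clones. TREM2, a myeloid receptor that pairs with TYROBP, had 0 counts in all N clones and 13 over 5 A clones. CD163, a macrophage scavenger receptor, had 47 counts over N clones and 209 over A clones, and 4 A clones exceeded all N clones. Listed markers with more counts over N clones included KIT, the stem cell factor receptor of mast cells, with 4683 over N (up to 2044 in a clone) and 494 over A clones, and CORO1A, a leukocyte actin regulator, with 206 and 102. The KIT counts came mostly from animal 23. Its N clones had 2044, 673, 1212 and 724 and its A clone 23-108 had 420, while no N clone of another animal had more than 12.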
